A study of Rattus norvegicus with 6 samples.

Results

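The genes described here encode membrane carriers of organic anions, organic cations, carnitine, bile acids and nucleosides, measured in cells of the rat epididymis. They were chosen by symbol: the organic anion transporting polypeptides (Slco, without the prostaglandin carrier Slco2a1), the bile acid carriers (Slc10), the organic ion and carnitine transporters (Slc22), the concentrative and equilibrative nucleoside transporters (Slc28 and Slc29) and the proton-coupled extruders (Slc47). This rule gave 45 of the 18166 genes that could be named and tested on the array. The fractions came from Sprague-Dawley rats aged 48 days, whose epididymides were separated magnetically into basal cells and the remaining, non-basal cells, with 3 arrays (Affymetrix RaGene 2.0 ST) for basal and 3 for non-basal cells. No genetic change or treatment is given for either fraction, and the labels do not say which surface molecule was used or how many rats contributed to an array. Values are log2 RMA units, a log2 brightness of the probe set in which 1 unit is a doubling. Probe sets differ in how brightly they bind, so values are compared between arrays and not between genes.

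The epididymis is the duct in which sperm mature. Its tall principal cells take up solutes from the blood side and alter the fluid around the sperm, which becomes rich in carnitine, while basal cells lie beneath them on the basement membrane. Slco proteins exchange large amphipathic anions such as steroid sulfates, bile acids and thyroid hormones. Slc22 proteins carry smaller organic anions, organic cations and carnitine, and Slc28 and Slc29 proteins move nucleosides with or without a sodium gradient.

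The fractions matched their labels for the basal layer. All 10 markers of basal epithelium were higher (median log2 difference 2.81), with list means of 10.50 to 10.85 in basal and 7.47 to 8.32 in non-basal arrays. The non-basal fraction held more of other cell types: 10 of 10 fibroblast, 8 of 9 smooth muscle, 8 of 9 endothelial, 8 of 10 lymphocyte and 3 of 10 macrophage markers were lower in basal arrays, against 1 of 9 principal cell markers and 0 of 8 narrow and clear cell markers (limma). At an unadjusted p under 0.05 there were 5 of the 9 principal cell markers, whose list had a median log2 difference of -0.66, and 0 of the 8 narrow and clear cell markers. Fibroblast list means were 6.92, 7.45 and 8.74 in the basal arrays, and 11.03, 12.04 and 11.86 in the non-basal arrays, each in the order of replicates 1 to 3 that is kept throughout. Principal cell list means were 10.31, 10.60 and 11.09 in basal and 11.57, 11.22 and 11.22 in non-basal arrays. Basal replicate 3 was thus the basal array with the most signal of both kinds. In these bulk samples, fewer cells of a type and less RNA per cell cannot be told apart.

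Of the 45 transporters, 2 were higher in the basal fraction, 5 were lower and 38 did not pass (limma, Benjamini-Hochberg adjusted p under 0.05 over all genes). The 7 called members are 15.6% of the set, next to 14.9% of all genes called. By direction the shares were 4.44% of members and 7.71% of all genes for higher, and 11.1% and 7.14% for lower. In count, these carriers therefore did not stand out from the rest of the array. The median log2 difference was -0.0024 over the members and 0.0034 over all genes. With a mean of at least 5 in either fraction, it was -0.089 over 35 members and 0 over 16207 genes. At a mean of at least 7 in either fraction, it was -0.23 over 15 members and 0.022 over 10876 genes. Differences of at least 2-fold were found for 3 members (6.67%, against 6.21% of all genes). In either direction, 31 of the 45 members and 11617 of the 18166 genes differed by less than 0.25 log2 units. The 3 values of one fraction lay wholly on one side of the other for 13 members (28.9%), against 32.9% of all genes, with basal above for 4 (17.6% of all genes) and below for 9 (15.3%). An unadjusted p under 0.05 in limma was reached by 12 of the 45 members and by 5443 of the 18166 genes (30.0%). Many members were dim: 31 had a mean under 7, of which 2 were called (6.45%, against 5.25% of all genes under 7), and 14 had a mean of at least 7, of which 5 were called (35.7%, against 21.9%).

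**Figure D1:**
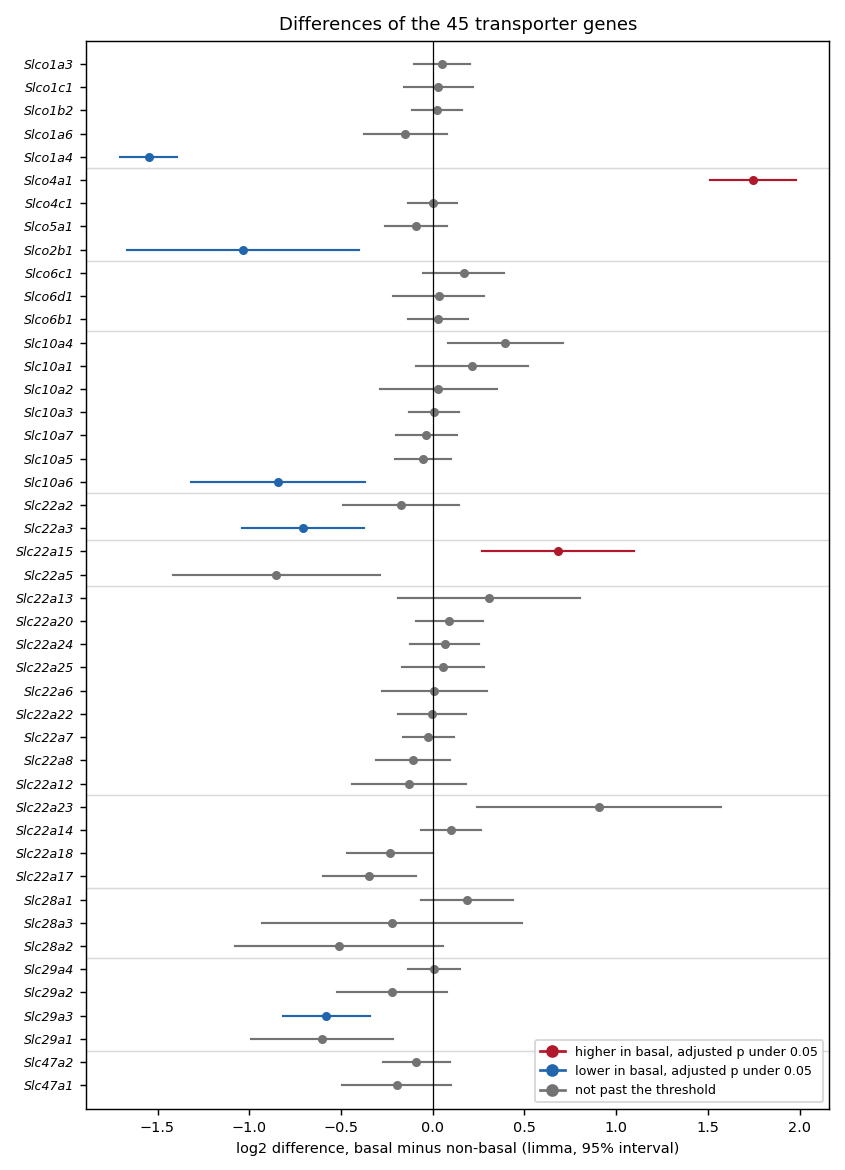
Log2 difference, basal minus non-basal, of all 45 transporter genes with its 95% interval from limma, grouped by family from Slco1 at the top to Slc47 at the bottom. Red marks the 2 genes higher and blue the 5 genes lower in the basal fraction, and grey the 38 that did not pass.

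The upstream sequences of the 2 genes that were higher, Slco4a1 and Slc22a15, and of the 2 lower genes with the smallest p, Slco1a4 and Slc29a3, are given as the 250 bases before the RefSeq gene start (GRCr8), 5′ to 3′ on the strand of the gene. They lie at chr3:187936632-187936881 (plus strand), chr2:192047361-192047610 (minus), chr4:176495847-176496096 (minus) and chr20:29228300-29228549 (minus). Capitals mark matches on either strand to the GC box GGGCGG, the TATA box TATAAA, the xenobiotic response element TNGCGTG or the AP-1 site TGANTCA.
Slco4a1: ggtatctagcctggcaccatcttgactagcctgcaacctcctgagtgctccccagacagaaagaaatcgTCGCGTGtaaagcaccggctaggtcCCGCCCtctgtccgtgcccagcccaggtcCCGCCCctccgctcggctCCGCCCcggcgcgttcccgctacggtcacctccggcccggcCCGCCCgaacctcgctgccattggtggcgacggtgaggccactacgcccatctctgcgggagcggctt
Slc22a15: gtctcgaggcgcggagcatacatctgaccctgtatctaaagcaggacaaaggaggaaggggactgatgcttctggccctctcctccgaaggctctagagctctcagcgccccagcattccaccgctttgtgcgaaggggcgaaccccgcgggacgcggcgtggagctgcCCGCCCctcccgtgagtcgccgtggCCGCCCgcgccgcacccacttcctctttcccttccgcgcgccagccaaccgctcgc
Slco1a4: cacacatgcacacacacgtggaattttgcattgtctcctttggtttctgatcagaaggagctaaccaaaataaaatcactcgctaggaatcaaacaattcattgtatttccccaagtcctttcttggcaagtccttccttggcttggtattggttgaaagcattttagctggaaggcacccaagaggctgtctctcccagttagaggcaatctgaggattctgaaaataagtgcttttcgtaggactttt
Slc29a3: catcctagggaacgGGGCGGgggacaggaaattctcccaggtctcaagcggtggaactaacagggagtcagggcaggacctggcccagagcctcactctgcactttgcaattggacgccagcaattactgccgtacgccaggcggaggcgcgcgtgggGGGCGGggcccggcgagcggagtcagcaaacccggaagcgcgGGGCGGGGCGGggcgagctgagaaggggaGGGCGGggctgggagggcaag

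The windows differ in base composition. The GC content was 68.0% for Slco4a1, 67.2% for Slc22a15 and 68.8% for Slc29a3, but 42.4% for Slco1a4, where the median of 33469 RefSeq windows of this length was 51.2%. GC boxes numbered 4 in Slco4a1, 2 in Slc22a15 and 5 in Slc29a3, with 2 of those 5 overlapping by 1 base, and 30.5% of all windows hold at least 1. Of the 7 called members, both higher genes and 1 of the 5 lower genes held a GC box, since Slc10a6, Slc22a3 and Slco2b1, whose windows are not printed, held none. Slco4a1 also held 1 match to TNGCGTG, which 4.09% of windows contain, from 181 to 175 bases before the start. None of these letters was found in the Slco1a4 window, and TATAAA (12.9% of windows) and TGANTCA (6.34%) were in none of the 4. A match is a description of the sequence and not of a bound site.

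The organic anion transporting polypeptides held the most positive and the most negative difference of the set. Slco4a1, a widely expressed carrier of thyroid hormones and bile acids, measured 10.13, 10.08 and 9.84 in the basal arrays, against 8.20, 8.28 and 8.34 in the non-basal arrays. The fractions did not overlap, and the lowest basal value lay in replicate 3. Slco4a1 was 3.35-fold higher in the basal fraction (log2 difference 1.74 ± 0.096 SE, 95% interval 1.51 to 1.98, adjusted p = 0.00147). Slco1a4, known in the rat as a carrier of bile acids, digoxin and thyroid hormones in liver and brain capillaries, measured 5.37, 5.41 and 5.40 in the basal arrays, against 7.0, 6.95 and 6.87 in the non-basal arrays. The 3 basal values were nearly equal and lay far below the non-basal values. Slco1a4 was 2.92-fold lower (-1.55 ± 0.064 SE, interval -1.70 to -1.39, adjusted p = 0.000908). Both calls held with any 1 array left out, at adjusted p up to 0.0211 for Slco4a1 and 0.0154 for Slco1a4. The Slco1a genes are close copies, 2 of which share a probe set on this array, so the assignment of signal to Slco1a4 is uncertain. Endothelial list means, given because Slco1a4 is known in brain capillaries, were 7.0, 6.91 and 7.33 in basal and 8.67, 8.50 and 8.59 in non-basal arrays, and their part in the result was not tested.

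Slco2b1, which carries steroid sulfates such as estrone sulfate, measured 7.13, 6.99 and 7.21 in the basal arrays, against 7.54, 8.39 and 8.50 in the non-basal arrays. Non-basal replicate 1 lay much nearer to the basal values than the other non-basal arrays did. Slco2b1 was 2.05-fold lower in the basal fraction (-1.03 ± 0.26 SE, interval -1.67 to -0.40, adjusted p = 0.0480). Of the 6 fits that each omit an array, the call held in the one without non-basal replicate 1 (adjusted p = 0.00326), and its adjusted p reached 0.173 without basal replicate 2. Non-basal replicate 1 was also the lowest non-basal array in the fibroblast, smooth muscle, lymphocyte, macrophage and basal epithelial lists. Basal epithelial list means were 7.47, 8.31 and 8.32 in the non-basal arrays. Lymphocyte list means were 5.86, 6.11 and 6.44 in basal and 7.63, 8.47 and 8.37 in non-basal arrays, with 8 of 10 markers lower. Macrophage list means were 8.12, 8.52 and 8.14 in basal and 8.40, 9.50 and 9.37 in non-basal arrays, with 3 of 10 markers lower. The part of these lists in the Slco2b1 result was not tested. Slco4c1, a carrier of digoxin and thyroid hormone known from kidney, was listed at 4.75 in all 6 arrays. Its mean lay at percentile 9.43 of all genes. A difference of 0 from equal values in every array does not show that RNA levels were equal, and why the values were equal was not tested.

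The remaining Slco genes were dim and did not pass. Slco1a3, Slco1a6, Slco1b2 and Slco1c1, known from kidney, liver and brain barriers, ranged over single arrays from 3.22 to 5.13, with differences between -0.15 and 0.05. Slco5a1, a carrier with no settled substrate, ranged from 5.59 to 5.82 (-0.09, adjusted p = 0.430). The Slco6 genes Slco6b1, Slco6c1 and Slco6d1, of a family known from rat testis, ranged from 4.45 to 4.92 with differences of 0.03 to 0.17 (lowest adjusted p 0.268). Of 10 germ cell and sperm markers 0 were called by limma, with 0 at an unadjusted p under 0.05.

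**Figure D2:**
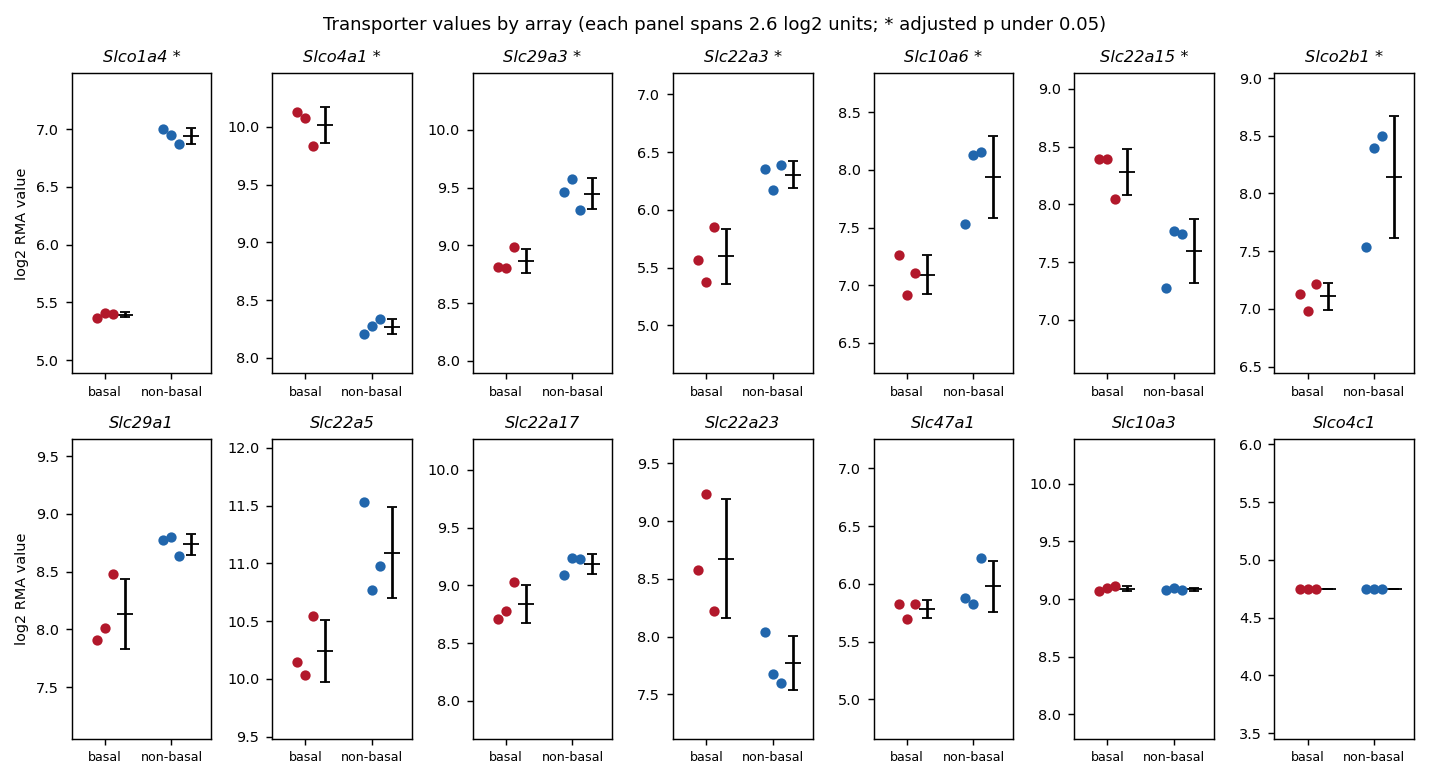
Log2 RMA values of 14 transporter genes in each array, with basal arrays in red on the left and non-basal arrays in blue on the right of each panel. The bar is the mean ± SD of 3 arrays, and an asterisk marks the 7 genes at an adjusted p under 0.05. Slco1a4 and Slco4a1 show the widest gaps between fractions, and Slco4c1 has the same value in every array.

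Among the Slc10 carriers 1 of 7 was called. Slc10a6, the sodium-dependent carrier of sulfated steroids, measured 7.26, 6.92 and 7.10 in the basal arrays, against 7.53, 8.13 and 8.16 in the non-basal arrays. As for Slco2b1, non-basal replicate 1 was the lowest of its fraction. Slc10a6 was 1.79-fold lower (-0.84 ± 0.19 SE, interval -1.32 to -0.37, adjusted p = 0.0372). The call held only without non-basal replicate 1 among the 6 fits with 1 array left out (adjusted p = 0.00747), and its adjusted p reached 0.144 without basal replicate 2. Neither the Slc10a6 nor the Slco2b1 call held in the other 5 of these fits.

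The other 6 Slc10 genes did not pass. Slc10a3, an orphan of the family, was bright and nearly level, at 9.07, 9.09 and 9.11 in basal and 9.07, 9.10 and 9.07 in non-basal arrays. Its 95% interval was -0.13 to 0.14, and rests on variation between arrays that may be technical. Slc10a1 and Slc10a2, the bile acid uptake carriers of liver and ileum, differed by 0.21 and 0.03 (adjusted p = 0.309 and 0.896). The difference was 0.40 for Slc10a4, an orphan of synaptic vesicles (adjusted p = 0.0985), whose arrays did not overlap, -0.05 for the orphan Slc10a5 and -0.04 for Slc10a7, with adjusted p of 0.618 and 0.763.

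Of the organic cation transporters, Slc22a3, the extraneuronal carrier of monoamines, measured 5.57, 5.38 and 5.85 in the basal arrays, against 6.35, 6.17 and 6.39 in the non-basal arrays. Basal replicate 3 came closest to the non-basal values. Slc22a3 was 1.63-fold lower (-0.71 ± 0.14 SE, interval -1.04 to -0.37, adjusted p = 0.0217). Of the 6 fits that each omit an array, its call held in the one without basal replicate 3 (adjusted p = 0.00908), and the adjusted p was at most 0.0990, without non-basal replicate 3. Smooth muscle list means were 8.0, 8.07 and 8.73 in basal and 10.12, 10.42 and 10.35 in non-basal arrays. Basal replicate 3 was the highest basal array in this list, as in the fibroblast, endothelial, lymphocyte, principal cell and narrow and clear cell lists. Among the non-basal arrays, Slc22a3 was lowest in replicate 2, where the smooth muscle list was highest. The part of these lists in the Slc22a3 result was not tested. Slc22a2, the renal cation carrier, differed by -0.17 (adjusted p = 0.416). The extruders Slc47a1 and Slc47a2, which pass cations out of renal and liver cells in exchange for protons, differed by -0.20 and -0.09 (adjusted p = 0.331 and 0.472), and Slc47a1 measured 5.83, 5.69 and 5.83 in basal and 5.88, 5.83 and 6.23 in non-basal arrays.

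Of the 2 carnitine carriers measured, 1 passed. Slc22a15, which carries carnitine and other zwitterions as studied for the human protein, measured 8.40, 8.39 and 8.05 in the basal arrays, against 7.28, 7.77 and 7.74 in the non-basal arrays. Basal replicate 3 and non-basal replicate 1 were the lowest of their fractions. Slc22a15 was 1.61-fold higher in the basal fraction (0.68 ± 0.17 SE, interval 0.27 to 1.10, adjusted p = 0.0471). Of the fits that omit an array, the one without basal replicate 3 kept the call (adjusted p = 0.0388), and the adjusted p reached 0.169 without basal replicate 2. Slc22a5, the sodium-dependent carnitine transporter, measured 10.15, 10.03 and 10.55 in the basal arrays, against 11.53, 10.77 and 10.98 in the non-basal arrays. The fractions did not overlap, but the SD was 0.27 for basal and 0.394 for non-basal arrays. Its difference of -0.85 ± 0.23 SE (interval -1.42 to -0.29) missed the threshold at an adjusted p of 0.0610, reached 0.207 without basal replicate 2, and passed after quantile normalization (adjusted p = 0.0495) or median centring of the arrays (0.0440). Its highest non-basal value lay in replicate 1 and its highest basal value in replicate 3. The principal cell, narrow and clear cell and endothelial lists had their highest mean of each fraction in the same arrays. The part of these lists in the Slc22a5 values was not tested.

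None of the 9 organic anion transporters of the Slc22 family passed in limma, nor did any reach an unadjusted p under 0.05 (0 of 9). They were Slc22a6 and Slc22a8, the basolateral anion carriers of kidney, Slc22a7 of liver and kidney, Slc22a12 and Slc22a13, which carry urate, Slc22a20 of the olfactory epithelium, the prostaglandin carrier Slc22a22, and Slc22a24 and Slc22a25. Single arrays ranged from 3.87 to 7.08 over the 9 genes. Differences lay between -0.13, for Slc22a12, and 0.31, for Slc22a13, with a lowest adjusted p of 0.366.

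The less typical Slc22 genes showed small or uneven differences. Slc22a23, an orphan, measured 8.58, 9.23 and 8.22 in the basal arrays, against 8.04, 7.67 and 7.60 in the non-basal arrays. Its difference of 0.91 ± 0.27 SE (interval 0.24 to 1.57) missed the threshold (adjusted p = 0.0817), with an SD of 0.515 for basal and 0.236 for non-basal arrays, and passed without basal replicate 3 (adjusted p = 0.0386). Slc22a17, a receptor for the iron-binding lipocalin Lcn2, measured 8.71, 8.78 and 9.03 in basal and 9.09, 9.24 and 9.23 in non-basal arrays. Its difference was -0.35 ± 0.10 SE (adjusted p = 0.0810, and 0.0215 without basal replicate 3). Slc22a18, an imprinted orphan, and Slc22a14, needed for sperm motility in mice, differed by -0.23 and 0.10 (adjusted p = 0.169 and 0.365).

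The equilibrative nucleoside transporters had 1 call among 4. Slc29a3, which works on inner membranes such as those of lysosomes, measured 8.81, 8.81 and 8.99 in the basal arrays, against 9.46, 9.58 and 9.31 in the non-basal arrays. Slc29a3 was 1.49-fold lower (-0.58 ± 0.097 SE, interval -0.82 to -0.34, adjusted p = 0.0136). The call was lost without basal replicate 1 (adjusted p = 0.0658), basal replicate 2 (0.0683) or non-basal replicate 2 (0.0528). Slc29a1, the main adenosine carrier of the cell surface, measured 7.91, 8.01 and 8.48 in basal and 8.77, 8.80 and 8.63 in non-basal arrays. All basal values lay below all non-basal ones, with replicate 3 the closest. The difference of -0.60 ± 0.16 SE (interval -0.99 to -0.22) missed the threshold at an adjusted p of 0.0560, and passed without basal replicate 3 (0.00569), after quantile normalization (0.0353) and after centring (0.0360). Slc29a2, a carrier of nucleosides and nucleobases, and Slc29a4, which also carries monoamines, differed by -0.22 and 0.01 (adjusted p = 0.279 and 0.953).

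The concentrative nucleoside transporters did not pass. Differences were 0.19 for the pyrimidine carrier Slc28a1, -0.51 for the purine carrier Slc28a2 and -0.22 for Slc28a3, which takes both (adjusted p = 0.274, 0.205 and 0.648). Slc28a3 had the widest interval of all 45 genes, at 0.71 log2 units on either side.

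**Figure D3:**
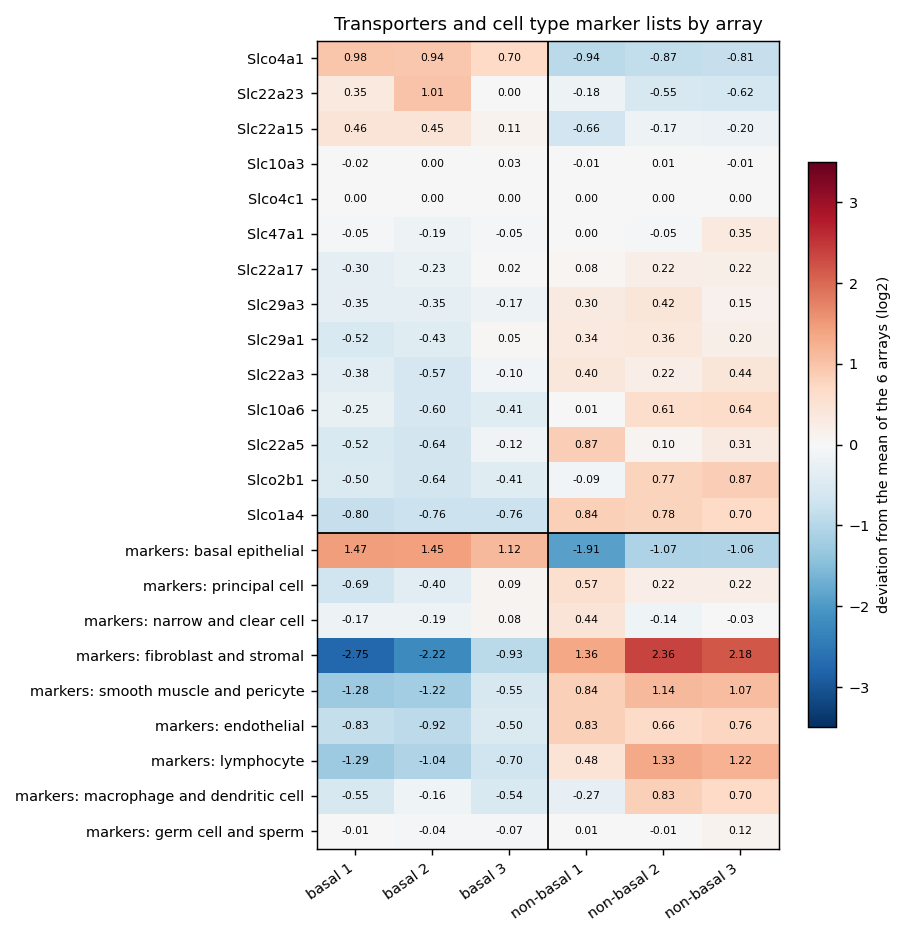
Deviation of each array from the mean of the 6 arrays, in log2 units, for 14 transporters (upper rows) and the mean of 9 cell type marker lists (lower rows), with the 3 basal arrays left and the 3 non-basal arrays right. Slco2b1 and Slc10a6 share their low non-basal replicate 1 with the fibroblast, smooth muscle, lymphocyte, macrophage and basal epithelial lists. Slc22a5 is highest in that array, as are the principal cell, narrow and clear cell and endothelial lists. The part of the lists in the transporter values was not tested.

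Genes that act with these carriers were taken from 7 lists, in which 95 of 115 symbols were measured. Together 9 were higher and 15 lower, 25.3% of those measured, against 14.9% of all genes. The lists were chosen with earlier results of these data known, so the 2 shares are no test of the lists. Nor were the list genes split by brightness, and 21.9% of all genes with a mean of at least 7 were called. With each array left out in turn, 7 of the 24 list calls held in all 6 fits. They were those of Uck2, Upp1, Maob, Sult1a1, Abcb1b, Abcc3 and Ahr. Another 7 held in at most 1 fit: Cpt1a, Crat, Nt5e, Dpp4 and Nt5c2 in 1, and Pnp and Abcc5 in 0. The remaining 10 held in 2 to 5 fits.

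In the monoamine list, 2 of 13 genes were lower and 11 did not pass (median -0.09). Maob, the mitochondrial enzyme that oxidises phenylethylamine and dopamine, measured 7.0, 7.41 and 8.47 in basal and 10.60, 10.91 and 10.73 in non-basal arrays. Maob was 8.72-fold lower (-3.12 ± 0.37 SE, adjusted p = 0.00475). Basal replicate 3 was its highest basal array, as in the fibroblast, smooth muscle, endothelial, lymphocyte, principal cell and narrow and clear cell lists. The part of these lists in the Maob result was not tested. Maoa, which prefers noradrenaline and serotonin, was 1.31-fold lower (-0.39 ± 0.075 SE, adjusted p = 0.0209). The histamine enzyme genes Hnmt and Aoc1 were among the 11 that did not pass, with differences of 0.10 and -0.01 (adjusted p = 0.414 and 0.916).

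Nucleoside and adenosine genes went both ways, with 3 of 21 higher and 4 lower (median -0.03). Uck2, the uridine-cytidine kinase that traps pyrimidine nucleosides after entry, measured 10.89, 10.95 and 10.43 in basal and 9.59, 9.54 and 9.50 in non-basal arrays, and was 2.32-fold higher (1.21 ± 0.15 SE, adjusted p = 0.00513). Upp1, which cleaves uridine, was 1.53-fold lower (-0.62 ± 0.066 SE, adjusted p = 0.00370). The adenosine receptor gene Adora2a was 2.33-fold lower (adjusted p = 0.00953). Nt5e, the surface enzyme that makes adenosine, was 1.34-fold lower (adjusted p = 0.0248), and the surface peptidase gene Dpp4, which binds adenosine deaminase in humans, was 2.30-fold lower (adjusted p = 0.0319).

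In the carnitine list 3 of 15 genes were lower and none was higher (median -0.08). They were the carnitine palmitoyltransferase genes Cpt1a (-0.38, adjusted p = 0.0436) and Cpt1c (-0.62, adjusted p = 0.0148) and the carnitine acetyltransferase gene Crat (-0.47, adjusted p = 0.0289). The 12 others, which include the genes of carnitine synthesis, did not pass.

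Thyroid hormone genes numbered 9, of which 1 was higher and 2 were lower (median -0.01). Dio3, the deiodinase that inactivates thyroid hormones, measured 8.57, 8.46 and 7.98 in basal and 6.55, 7.06 and 7.07 in non-basal arrays. Dio3 was 2.71-fold higher (1.44 ± 0.21 SE, adjusted p = 0.00894, reaching 0.0550 without basal replicate 2). Dio2, the deiodinase that activates the hormone, was 1.34-fold lower (adjusted p = 0.0361), and the receptor gene Thra was 1.90-fold lower (adjusted p = 0.0243). Of 15 genes of steroid and bile acid conjugation and export, 1 was lower and 14 did not pass (median 0.02). That gene was Sult1a1, a sulfotransferase of phenols, at 9.32, 9.45 and 9.28 in basal and 10.06, 10.56 and 10.41 in non-basal arrays (1.99-fold lower, adjusted p = 0.00756).

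Multidrug efflux pumps, which expel many substrates of the uptake carriers, had 3 of 9 higher and 2 lower (median -0.03). Abcb1b, a P-glycoprotein gene, measured 10.16, 10.22 and 9.42 in basal and 6.31, 7.40 and 7.41 in non-basal arrays. Abcb1b was 7.43-fold higher (2.89 ± 0.37 SE, adjusted p = 0.00572). Its close relative Abcb1a, the P-glycoprotein gene of brain capillaries in rodents, measured 6.73, 6.99 and 6.58 in basal and 7.49, 7.69 and 7.45 in non-basal arrays, and was 1.72-fold lower (-0.78 ± 0.13 SE, adjusted p = 0.0129). Because these genes are near copies, probes for one may also bind the other. Abcc3 and Abcc1, which export conjugates, were 1.82-fold and 1.22-fold higher (adjusted p = 0.00490 and 0.0293), and Abcc5 was 1.29-fold lower (adjusted p = 0.0466).

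Among 13 PDZ scaffold and transcription factor genes 10 did not pass, 2 were higher and 1 was lower (median -0.13). Ahr, the receptor that binds the xenobiotic response element, measured 10.98, 10.97 and 10.57 in basal and 9.15, 9.51 and 9.50 in non-basal arrays and was 2.74-fold higher (1.45 ± 0.16 SE, adjusted p = 0.00377). Rxra, the retinoid X receptor that pairs with other nuclear receptors, was 1.70-fold higher (adjusted p = 0.0219), and Pparg, a nuclear receptor for fatty acids, was 1.58-fold lower (adjusted p = 0.0253).

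**Figure D4:**
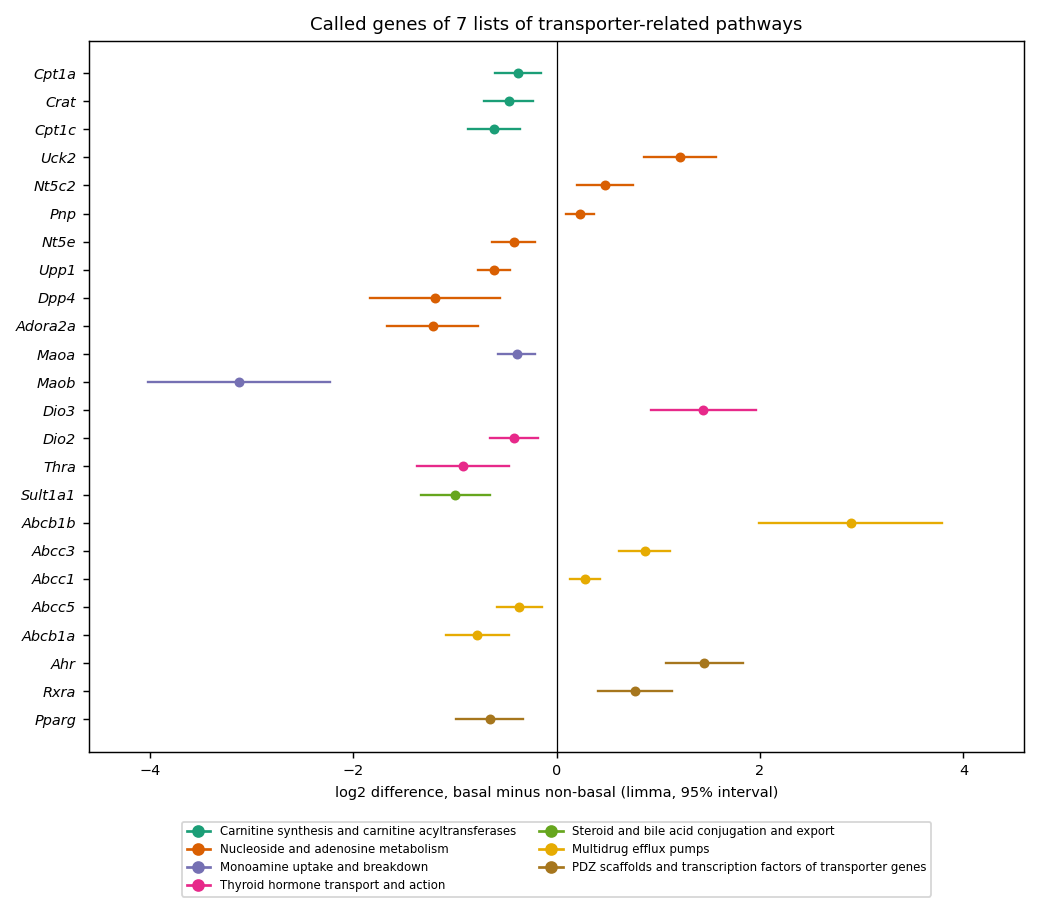
Log2 difference, basal minus non-basal, with its 95% interval from limma for the 24 called genes of 7 lists of genes that act with these transporters, coloured by list. Abcb1b lies farthest to the right at 2.89 and Maob farthest to the left at -3.12.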

How the data were processed

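Total RNA of 3 basal and 3 non-basal arrays was compared, grouped by sample title, at 48 days of age. The deposited values are log2 expression values made by the authors by RMA (Expression Console of Affymetrix, per the submitters' processing notes); the version, probe set library and genome build are not given in the sources used here. RMA forces the arrays to like distributions, so a shift of most genes would be removed, and differences are compressed at both ends of the brightness range. No detection calls were used. Array medians lay between 6.63 and 6.70, and correlations were 0.982 to 0.991 within and 0.956 to 0.974 between fractions. The number of arrays limits the precision.

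Of 36685 probe sets 18511 carried 1 symbol in the platform annotation, 575 several and 17599 none. Entrez identifiers of 18394 named probe sets were found in RefSeq (GRCr8), and 0 symbols changed. The brightest probe set per gene was used. Of 47 symbols that matched the rule, 45 were used. Slco1a1 and Slco1a5 share a probe set and were left out. Slc22a4 and Slc22a16 were not analysed here. Upstream sequences come from RefSeq, matched by gene identifier for 38 of the 45 genes.

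All genes entered a fit of basal minus non-basal with limma 3.58.1 (lmFit, eBayes) in R 4.3.3 (two-sided, 4 residual degrees of freedom before moderation, no replicate block), Benjamini-Hochberg adjusted over 18166 genes and called at an adjusted p under 0.05. The labels name 3 rats without tying arrays to animals, so p-values reflect only how these samples vary, and that variation may be technical. Arrays with the same replicate number did not deviate together (correlations of 0.0052, -0.011 and 0.0014). The procedure was also run on simulated data, and the outcome is not reported here.

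The members, lists and rules were chosen with earlier results of these data known. Described by array were all called members, the 5 brightest, the 4 uncalled ones with the smallest adjusted p, and Slc22a5, Slc22a3, Slc29a1, Slc47a1, Slc10a6 and Slco4c1 in any case. Of each list, called genes were named, up to 5 by p. Alternatives were a replicate block, quantile normalization, median centring, filters at a mean of 5 or 7 in either fraction, array weights, a robust eBayes with an intensity trend, averaging the probe sets of a gene, thresholds of 0.01 and 0.1, and left-out arrays.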

Additional observations from a re-analysis of the deposited data

How the results depend on the processing

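Slco4a1 and Slco1a4 kept their direction and call in every alternative that held them (Slco1a4 is left out at a group mean of 7). All genes called higher and lower numbered 1401 and 1297, the members 2 and 5, and the genes of the 7 lists 9 and 15. Array weights gave 2868 and 2323 genes and 4 and 8 members. A threshold of 0.01 gave 491 and 556 genes, 1 and 1 members, and 5 and 4 list genes, and one of 0.1 gave 4 and 8 members. Without both of basal replicate 3 and non-basal replicate 1, counts were 2499 and 2124 genes, 5 and 9 members, and 11 and 20 list genes. With the replicate block, 1 and 2 members (Slco4a1, Slco1a4 and Slc22a3) and 9 lower list genes were called, and all genes numbered 982 and 1027; the arrays share only a number. With 1 array left out, counts ran from 509 to 2068 higher and 542 to 1607 lower genes, 1 to 3 and 1 to 5 members, and 4 to 9 and 3 to 14 list genes. Fewer arrays leave fewer degrees of freedom, but not every count fell, since genes called higher numbered 2068 without basal replicate 3. Genes called higher numbered 560 without basal replicate 1, 509 without basal replicate 2, 527 without non-basal replicate 3 and 624 when non-basal replicate 2 was omitted. The Slc10a3 difference of 0.0074 changed sign to -0.022 after quantile normalization, -0.0074 after centring, -0.0027 with array weights, -0.0084 without both arrays and -0.0044 without basal replicate 3, the lowest of the fits with 1 array left out (highest 0.0198, without basal replicate 1). The median of all genes was -0.029 after quantile normalization and -0.011 after centring, and that of the members -0.082 and -0.017. For dim probe sets the lack of detection calls limits what a level difference shows. The cause of these changes was not tested.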

Other observations

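The probe set shared by Slco1a1 and Slco1a5, carriers of rat liver, intestine and kidney, was not part of the comparison by gene. It measured 4.08, 4.03 and 4.25 in the basal arrays and 3.96, 3.96 and 4.05 in the non-basal arrays, which differ by 0.13 ± 0.087 log2 units (SE; adjusted p = 0.411 in limma over all 36685 probe sets).

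Exactly equal values recurred across arrays. At least 3 of the 6 arrays held the same value for 9 of the 45 transporters (20.0%) and for 16.1% of all genes. All 6 were equal for Slco4c1 and for 42 genes of the whole array, 5 for Slc22a7, and 4 for Slc29a4, Slco1a3, Slco1b2 and Slco1c1. For such probe sets the SE from limma rests on the moderated spread of other genes. These genes were singled out after their values were seen.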
